A study of Mus musculus with 6 samples.

Results

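The accessibility of 9 B lymphoid genes was described in mouse hematopoietic stem cells: the transcription factor genes Pax5 and Ebf1, the surrogate light chain genes Vpreb1 and Igll1, the recombinase genes Rag1 and Rag2, the B cell receptor signalling genes Cd79a and Cd79b, and the surface antigen gene Ms4a1 (CD20). The genes were taken by symbol, and every deposited ATAC-seq peak that overlapped a gene or the 10 kb on either side of it was kept. They are 9 of 49554 annotated genes on chromosomes 1 to 19 and X, of which 21631 are protein-coding. Their windows held 46 of the 84592 regions obtained by merging the peaks of all libraries that shared at least 1 bp.

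B cells arise from stem cells through lymphoid progenitors. EBF1 and PAX5 are the DNA-binding proteins that set up and then hold the B cell programme. The RAG proteins cut antigen receptor genes for rearrangement, the surrogate light chain pairs with the first heavy chain, and the CD79 proteins carry the signal of the receptor. These genes are known for being expressed little or not at all in stem cells, and enhancers of a lineage can be accessible before its genes are expressed.

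ATAC-seq uses the Tn5 transposase to cut and tag open DNA. About 20000 cells per library were sorted from bone marrow of C57BL/6 mice aged 12 weeks as Lin- Sca-1+ c-Kit+ CD48- CD150+ stem cells. The 3 libraries labelled Dek_fl came from Dek fl/fl mice, in which both alleles of Dek, the gene of a chromatin-bound nuclear protein, carry loxP sites, and the 3 labelled Dek_cKO from Dek fl/fl mice with Tie2-Cre. Both groups thus carry the floxed alleles, and Tie2 (Tek) control DNA drives Cre in blood and endothelial cells, so the loss is not confined to stem cells. The labels do not say that libraries of a group came from separate animals, and the series design text speaks of duplicates, so the spread between libraries may be technical. Where 3 values are given for a group, they stand in the order of replicates 1, 2 and 3.

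The stretches of 250 bases before the annotated starts of 6 genes are printed to show what lies under a promoter that had a peak in some libraries (Ebf1, Pax5 and Rag2) and under one that had none (Cd79a, Igll1 and Rag1). They are from RefSeq (GRCm38.p6), 5′ to 3′ along the gene, with matches to 4 short motifs in capitals: Ebf1 chr11:44617850-44618099 on the plus strand, Pax5 chr4:44710695-44710944 on the minus strand, Rag2 chr2:101624462-101624711 on the plus strand, Cd79a chr7:24897247-24897496 on the plus strand, Igll1 chr16:16863986-16864235 on the minus strand and Rag1 chr2:101649533-101649782 on the minus strand.
Ebf1: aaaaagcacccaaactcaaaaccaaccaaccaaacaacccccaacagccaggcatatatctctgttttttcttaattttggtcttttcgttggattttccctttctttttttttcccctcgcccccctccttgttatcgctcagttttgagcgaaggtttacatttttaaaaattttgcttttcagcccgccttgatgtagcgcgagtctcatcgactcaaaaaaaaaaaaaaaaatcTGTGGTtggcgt
Pax5: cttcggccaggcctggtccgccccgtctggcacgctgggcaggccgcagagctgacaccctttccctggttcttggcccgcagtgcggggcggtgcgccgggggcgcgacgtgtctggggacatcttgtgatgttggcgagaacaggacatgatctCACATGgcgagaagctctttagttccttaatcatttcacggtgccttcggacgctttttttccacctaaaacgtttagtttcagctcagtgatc
Rag2: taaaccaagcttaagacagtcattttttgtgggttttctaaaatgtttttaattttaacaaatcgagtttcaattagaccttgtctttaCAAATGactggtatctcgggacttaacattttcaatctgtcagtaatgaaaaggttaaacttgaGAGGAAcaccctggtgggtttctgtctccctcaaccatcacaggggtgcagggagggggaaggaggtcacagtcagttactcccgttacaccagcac
Cd79a: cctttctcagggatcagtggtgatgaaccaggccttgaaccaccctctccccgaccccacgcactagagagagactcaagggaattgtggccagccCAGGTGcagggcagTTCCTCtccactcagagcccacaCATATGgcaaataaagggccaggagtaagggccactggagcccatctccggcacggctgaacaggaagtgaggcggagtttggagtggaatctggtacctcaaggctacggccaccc
Igll1: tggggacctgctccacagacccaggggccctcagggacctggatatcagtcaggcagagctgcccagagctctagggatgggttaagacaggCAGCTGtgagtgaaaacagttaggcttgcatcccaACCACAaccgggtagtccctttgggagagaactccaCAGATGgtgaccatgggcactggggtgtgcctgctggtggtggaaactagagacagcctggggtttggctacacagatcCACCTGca
Rag1: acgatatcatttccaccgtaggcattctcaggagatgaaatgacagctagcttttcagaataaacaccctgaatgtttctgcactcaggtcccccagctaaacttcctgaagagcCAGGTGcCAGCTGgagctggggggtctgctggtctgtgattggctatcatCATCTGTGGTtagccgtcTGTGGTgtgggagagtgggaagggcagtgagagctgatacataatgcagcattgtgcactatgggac

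The motifs, searched on both strands, were the EBF1 palindrome (TCCC and GGGA with 2 bases between them), the E-box CANNTG, the RUNX motif TGTGGT and the PU.1 motif GAGGAA. Of the 32619 promoters of this length in the table, 0.782%, 66.2%, 13.9% and 23.4% held them. The palindrome matched none of the 8 promoter entries of the 7 genes that had an entry. E-boxes numbered 3 in Rag1 and in Igll1, 2 in Cd79a, 1 in Pax5 and in Rag2 and 0 at the Ebf1 start printed. RUNX letters occurred 2 times in Rag1, where one match shares bases with an E-box, and 1 time each in Ebf1 and Igll1. The PU.1 letters occurred 1 time each in Rag2 and Cd79a. CpG dinucleotides numbered 19 in Pax5 and 9 in Ebf1, against a median of 6 over all promoters, and 6 in Cd79a, 3 in Rag1 and in Rag2 and 1 in Igll1. The second annotated Ebf1 start, not printed, had 14 CpG and a peak in 0 libraries.

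Lists differed in length before any gene is considered. Dek_fl replicates 1, 2 and 3 held 52434, 71547 and 23809 peaks on these chromosomes, and Dek_cKO replicates 1, 2 and 3 held 70731, 73160 and 27167. The score column was built from q in replicates 1 and 2 and from p in replicate 3 of both groups, so the replicate number marks a processing batch that holds both groups. The lowest −log10 p of a list was 3.13, 2.87 and 5.07 in Dek_fl and 2.90, 2.97 and 5.02 in Dek_cKO. Peaks as weak as the weakest of replicates 1 and 2 are thus absent from the replicate 3 lists. Equal-length lists, of the 23809 peaks with the highest −log10 p in each library, were therefore described beside the deposited ones. The read depth is unknown, and a region without a call is not shown to be closed. As a check of the labels, the region at the end of the floxed gene Dek was called in all 6 libraries, but the labels do not say which part is deleted, so this does not test the deletion. At Tek, whose control DNA is in the Cre transgene, a peak inside the gene (chr4:94745330-94746933) was called in the 3 Dek_fl libraries and in 0 Dek_cKO libraries, with −log10 p of 230.7, 434.8 and 45.9, and the one at its end had −log10 p of 260, 576 and 56.6 in Dek_fl against 32.9, 20.5 and 8.59 in Dek_cKO. Tek signal was thus higher in the libraries labelled as lacking the transgene, so every direction given here is that of the labels.

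All 9 genes had at least 1 peak in their window in replicates 1 and 2 of both groups, and 7 of 9 had one in replicate 3 of both. The number of genes with a peak was 8.33 ± 1.15 (SD, n = 3) in Dek_fl and 8.33 ± 1.15 (SD, n = 3) in Dek_cKO. The background share of protein-coding genes with a peak in such a window was 78.6%, 80.9% and 67.4% in the Dek_fl libraries and 81.1%, 81.2% and 68.9% in the Dek_cKO libraries. In the equal-length lists 7 genes had a peak in every library except Dek_cKO replicate 2, which had 8, beside 68.2%, 68.6% and 67.4% and 68.4%, 68.3% and 66.6% of protein-coding genes (61.5% in all 6 libraries). The genes without a peak in either replicate 3 list were Cd79b and Ms4a1. A window peak in all 6 libraries was thus found at 7 of 9 genes (77.8%), beside 65.5% of protein-coding genes, and the genotypes did not differ in the count. These genes are not independent, since Vpreb1 shares such regions with Igll1, and Rag1 shares its own with Rag2. At Cd79a, Rag1 and Rag2 the only region called in all 6 libraries lay at the start of another gene, Arhgef1 or Iftap. At Ebf1 no single region was called in all 6.

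Counting regions in place of genes gave a larger gap between batches. Of the 46 merged regions, 25, 35 and 7 were called in the Dek_fl libraries and 38, 42 and 8 in the Dek_cKO libraries. That is 54.3%, 76.1% and 15.2% in Dek_fl and 82.6%, 91.3% and 17.4% in Dek_cKO, beside 60.0%, 83.8% and 27.5% and 82.7%, 84.0% and 31.3% of all merged regions. The group means were 22.3 ± 14.2 and 29.3 ± 18.6 regions (SD, n = 3 each), and the SD holds the gap between batches. Within each replicate number Dek_cKO had more calls than Dek_fl, and its whole list was also longer. In the equal-length lists the counts were 8, 9 and 7 in Dek_fl and 9, 8 and 6 in Dek_cKO, higher in Dek_cKO for replicate 1 alone.

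Regions called in all 6 lists were 5 of the 46 (10.9%), beside 23.3% of all merged regions, and 36 of 46 (78.3%) were called in neither replicate 3, beside 65.6%. Only 14 of 46 (30.4%) entered any equal-length list, beside 41.1% of all regions. Of the 46, 15 lay within 1 kb of the annotated start or end of some gene, 25 lay in a gene body and 6 outside genes. Pax5 and Ebf1, the longest genes of the set at 185947 and 389997 bp, held 28 of the 46 (60.9%) in their windows. Per 100 kb the windows of Pax5 and Ebf1 held 5.83 and 3.90 regions, against a median of 6.25 over protein-coding genes. Those of Cd79b, Igll1, Rag2 and Cd79a held 17.2, 17.2, 14.4 and 12.3, and those of Vpreb1, Rag1 and Ms4a1 held 9.59, 6.39 and 5.48. Except for Pax5 and Ebf1, all these windows also hold other protein-coding genes, and those with a peak on them are named below.

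**Figure D1:**
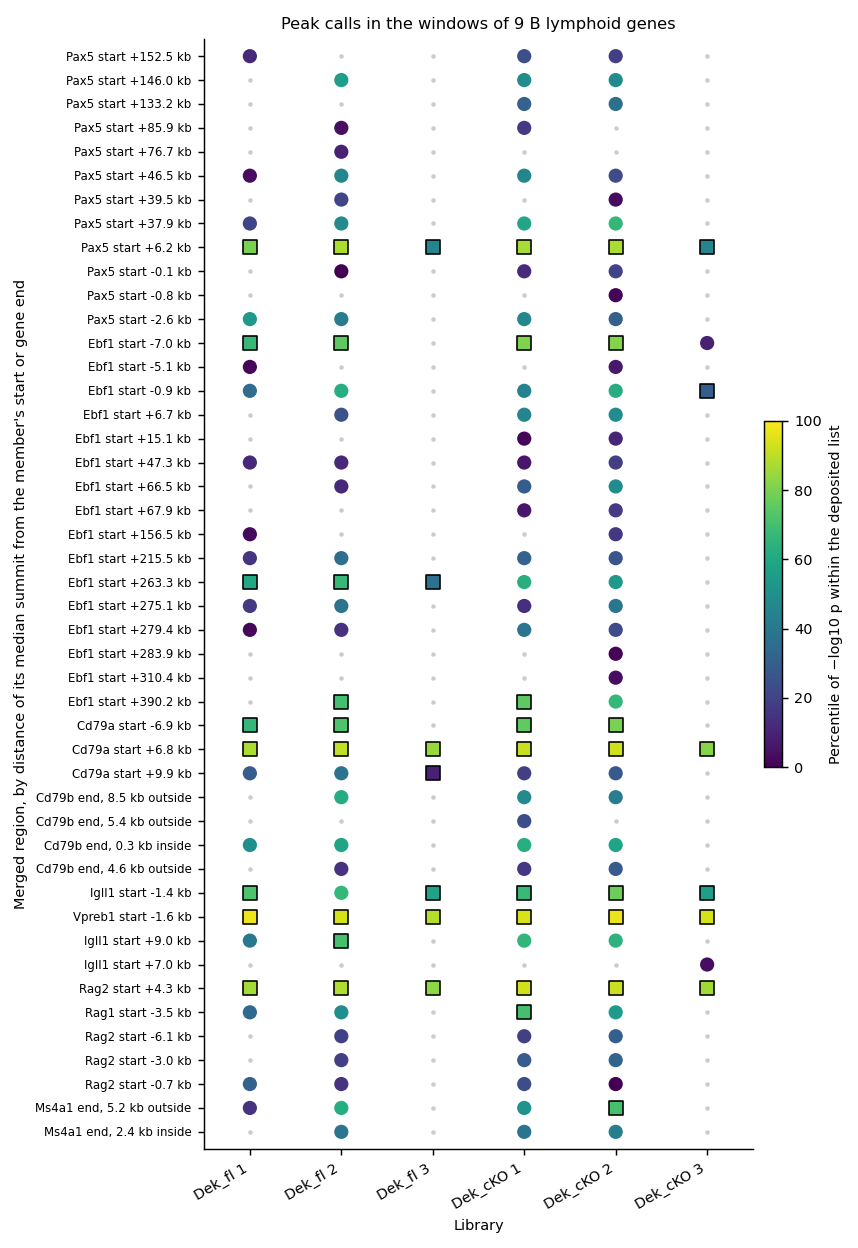
Peak calls in the windows of the 9 genes. Rows are the 46 merged regions, named by the distance in kb of the median summit from the gene's start (positive into the gene) or, for Cd79b and Ms4a1, from the nearer gene end; columns are the 6 libraries, colour is the percentile of −log10 p within the deposited list, squares mark peaks also in the equal-length list, and small grey dots mark no call. The replicate 3 columns hold 7 and 8 calls, against 25 to 42 in the others, and 5 rows are filled in all 6 columns.

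Pax5, the factor that commits cells to the B lineage, lies on chromosome 4 from 44524748 to 44710694 (mm10, minus strand, gene ID 18507), and its window held 12 regions. The strongest lay 6.2 kb into the gene (chr4:44703193-44705392), where it also overlapped the long non-coding RNA gene 5730488B01Rik, and was called in all 6 libraries. The fold over local background there was 6.14, 6.38 and 7.99 in the 3 Dek_fl libraries against 7.49, 7.95 and 8.73 in the 3 Dek_cKO libraries. The −log10 p was 33.7, 82.3 and 17.9 in the 3 Dek_fl libraries against 80.0, 75.4 and 17.7 in the 3 Dek_cKO libraries. Within the lists this placed the region at percentiles of 79.8, 87.7 and 44.9 in the 3 Dek_fl libraries against 87.0, 87.4 and 45.1 in the 3 Dek_cKO libraries. Both replicate 3 libraries, with the shortest lists, were lower than the others in this percentile of −log10 p, and the genotypes overlapped. In the equal-length lists it was 55.6, 63.2 and 44.9 in Dek_fl against 61.4, 61.2 and 37.4 in Dek_cKO. The percentile of fold there was 52.5, 40.9 and 51.8 in Dek_fl against 46.7, 41.9 and 48.6 in Dek_cKO, not lowest in replicate 3.

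At the Pax5 start itself (chr4:44710692-44711242), over the promoter printed above, the fold was only 1.85 in Dek_fl replicate 2 against 2.74 and 3.26 in Dek_cKO replicates 1 and 2. These peaks stood at percentiles of 0.140 in Dek_fl replicate 2 against 11.8 and 19.9 in Dek_cKO replicates 1 and 2, near the bottom of the lists. A second region 0.8 kb before the start was called in Dek_cKO replicate 2 alone, with a fold of 2.27. The region 2.6 kb before the start (chr4:44712193-44714352) was called in the 4 libraries of replicates 1 and 2 at folds of 4.63 and 3.73 in Dek_fl replicates 1 and 2 against 4.42 and 3.76 in Dek_cKO replicates 1 and 2. Inside the gene, at 37.9 kb (chr4:44672197-44673601), the fold was 3.30 and 4.20 in Dek_fl replicates 1 and 2 against 5.84 and 6.25 in Dek_cKO replicates 1 and 2. At 46.5 kb (chr4:44663649-44665166) it was 2.62 and 4.78 in Dek_fl replicates 1 and 2 against 5.26 and 3.85 in Dek_cKO replicates 1 and 2. Both intragenic regions were lowest in Dek_fl replicate 1, the shortest list of the 4. Farther in, the region at 146.0 kb (chr4:44564327-44565774) had folds of 6.10 in Dek_fl replicate 2 against 6.02 and 6.15 in Dek_cKO replicates 1 and 2. The region at 152.5 kb (chr4:44557612-44558474) had folds of 3.15 in Dek_fl replicate 1 against 4.11 and 3.93 in Dek_cKO replicates 1 and 2. The 4 remaining regions, at 39.5, 76.7, 85.9 and 133.2 kb, were called in 1 or 2 libraries each. Pax5 thus had 1 region that all libraries called, inside the gene near its start, with weaker calls at the promoter and farther in.

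Ebf1, which acts before Pax5 in the B lineage, lies on chromosome 11 from 44618100 to 45008096 (plus strand, gene ID 13591), and its window held 16 regions. A call in every library was found at 0 of them. At the start (chr11:44616514-44618602, summit 0.9 kb before it) the fold was 3.28 and 3.86 in Dek_fl replicates 1 and 2 against 3.65, 4.58 and 6.91 in the 3 Dek_cKO libraries. This was the one member gene end called in 5 libraries, and Dek_fl replicate 3 was the library without a call. These values are those of the peak with the higher −log10 p where a library had 2 peaks in the region, as in Dek_fl replicate 1 and Dek_cKO replicates 1 and 2. The promoter window was reached by the peak given for Dek_fl replicate 2 and by the second peaks of Dek_cKO replicates 1 and 2, with folds of 3.53 and 3.16. Upstream, 7.0 kb before the start (chr11:44610812-44611885), the fold was 5.17 and 5.57 in Dek_fl replicates 1 and 2 against 7.50, 7.59 and 5.46 in the 3 Dek_cKO libraries. The −log10 p there was 21.6 and 45.8 in Dek_fl replicates 1 and 2 against 57.7, 55.1 and 8.86 in the 3 Dek_cKO libraries. In replicates 1 and 2 the Dek_cKO values were above the Dek_fl values on both scales. Deposited folds were higher in Dek_cKO in general: among the 47491 regions called in these 4 libraries, both Dek_cKO folds were above both Dek_fl folds at 65.0% and below them at 0.663%, and the −log10 p was so at 26.7% and 0.581%. Over the 22 such regions of the B lymphoid windows the shares were 45.5% and 0% by fold and 40.9% and 0% by −log10 p, so a higher deposited fold in Dek_cKO is read here as no result about a region. In replicate 3 only Dek_cKO had a call, at percentile 9.05 of its list.

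A region 263.3 kb into Ebf1 (chr11:44880576-44882824) was called in all 3 Dek_fl libraries and in 2 of 3 Dek_cKO libraries. The fold was 5.24, 6.51 and 8.34 in the 3 Dek_fl libraries against 6.16 and 5.66 in Dek_cKO replicates 1 and 2, and the −log10 p was 17.9, 34.5 and 15.6 in the 3 Dek_fl libraries against 30.9 and 21.5 in Dek_cKO replicates 1 and 2. In replicates 1 and 2 the genotypes overlapped on both scales, and the fold percentiles were 65.9 and 79.2 in Dek_fl and 65.4 and 54.9 in Dek_cKO. In the equal-length lists this region was called in all 3 Dek_fl libraries and in 0 Dek_cKO libraries, which is the pattern of 0.207% of the 34731 regions in those lists. The reverse pattern, held by 0.115% of them, was found at no member region. The ranks by −log10 p were 20919, 23718 and 14846 in Dek_fl but 26188 and 33823 in Dek_cKO replicates 1 and 2, against a limit of 23809, so Dek_fl replicate 2 was just inside it. In the deposited lists 5 of 6 libraries called it.

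At the far end of Ebf1 (chr11:45007543-45008469, 390.2 kb) the fold was 7.94 in Dek_fl replicate 2 against 9.84 and 8.58 in Dek_cKO replicates 1 and 2, which placed it at fold percentiles of 92.1, 96.1 and 85.0 in those 3 lists, the highest of any Ebf1 region. Dek_fl replicate 1 had no call there. Of the other gene body regions called in 3 or more libraries, the one at 6.7 kb (chr11:44624428-44625064) had folds of 3.79 in Dek_fl replicate 2 against 5.73 and 5.85 in Dek_cKO replicates 1 and 2. At 47.3 kb (chr11:44664733-44665753) the folds were 3.15 and 3.05 in Dek_fl replicates 1 and 2 against 2.94 and 3.93 in Dek_cKO replicates 1 and 2. The region at 66.5 kb (chr11:44684238-44684848) had folds of 3.05 in Dek_fl replicate 2 against 4.41 and 6.19 in Dek_cKO replicates 1 and 2. The 3 regions at 215.5, 275.1 and 279.4 kb were each called in the 4 libraries of replicates 1 and 2. Folds at 215.5 kb (chr11:44832734-44833930) were 3.32 and 4.52 in Dek_fl replicates 1 and 2 against 4.55 and 4.47 in Dek_cKO replicates 1 and 2. At 275.1 kb (chr11:44892892-44893690) they were 3.15 and 3.78 in Dek_fl replicates 1 and 2 against 2.96 and 4.22 in Dek_cKO replicates 1 and 2. Those at 279.4 kb (chr11:44896173-44897826) were 2.46 and 2.59 in Dek_fl replicates 1 and 2 against 4.0 and 3.27 in Dek_cKO replicates 1 and 2. The other 6 regions, at 5.1 kb before the start and at 15.1, 67.9, 156.5, 283.9 and 310.4 kb inside, had calls in 1 or 2 libraries.

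**Figure D2:**
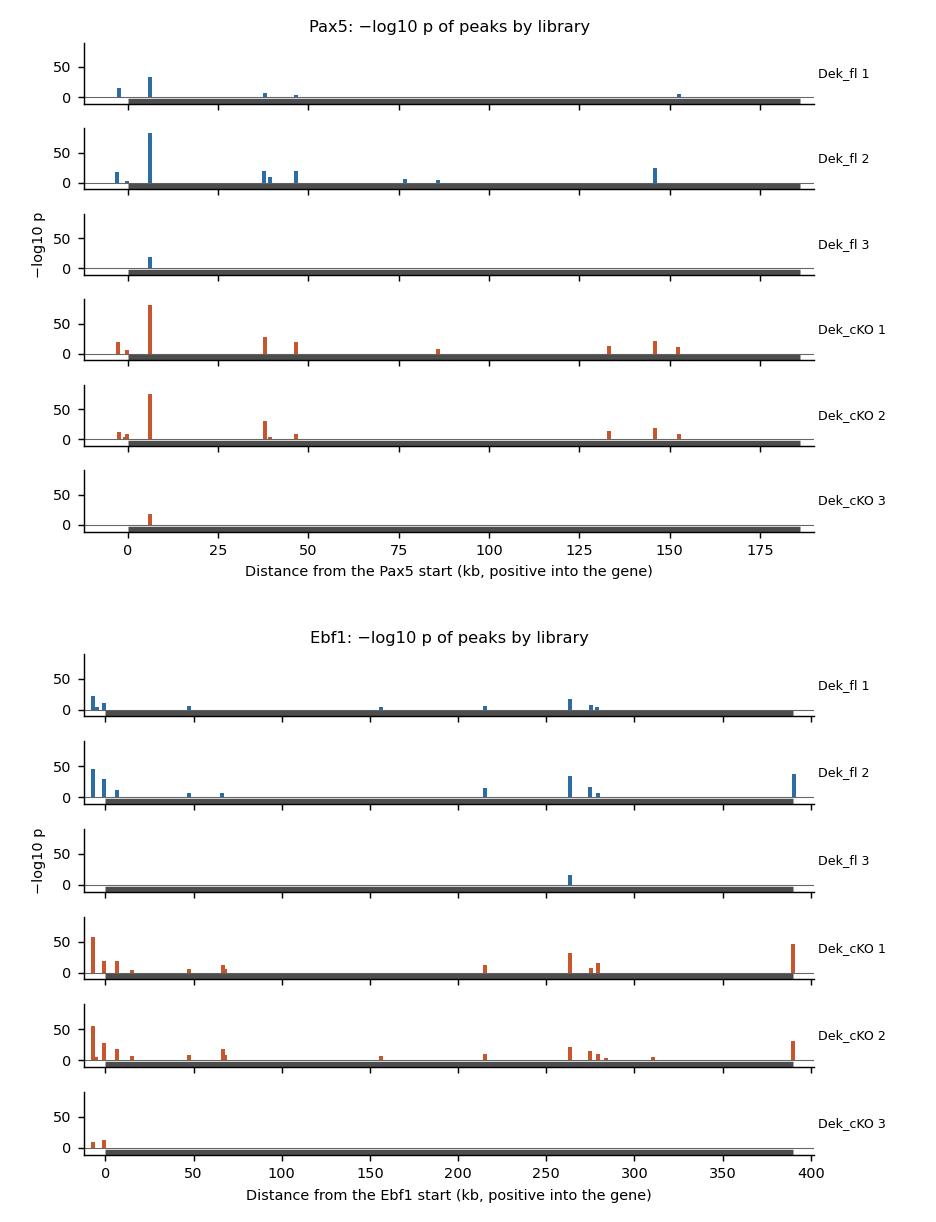
Peaks along Pax5 and Ebf1 in each library. The x axis is the distance from the gene's start in kb, positive into the gene, the y axis is −log10 p, each bar is 1 merged region with a call and the grey bar is the gene. Pax5 has 1 bar 6.2 kb into the gene in all 6 libraries, at 17.9 and 17.7 in the replicate 3 libraries. The bars of Ebf1 at 7.0 kb before its start reach 57.7, 55.1 and 8.86 in the 3 Dek_cKO libraries. In Dek_fl replicates 1 and 2 they reach 21.6 and 45.8. Both Dek_cKO values are above both Dek_fl values at 26.7% of all regions called in replicates 1 and 2 of both groups, and below them at 0.581%.

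Vpreb1 and Igll1 encode the 2 chains of the surrogate light chain and lie beside each other on chromosome 16, from 16868401 to 16869255 (gene ID 22362) and from 16860671 to 16863985 (gene ID 16136), both on the minus strand. Vpreb1 had no peak within 1 kb of either end in any library. The region 1.6 kb before its start (chr16:16870372-16871684) had the highest −log10 p of all 46 in every library, and its summit was 113 bp from the start of Top3b, a DNA topoisomerase gene. The fold was 9.65, 7.50 and 14.2 in the 3 Dek_fl libraries against 8.79, 10.2 and 16.1 in the 3 Dek_cKO libraries, and the −log10 p was 84.5, 119 and 60.2 in the 3 Dek_fl libraries against 125, 144 and 75.8 in the 3 Dek_cKO libraries. Within the lists it stood at percentiles of 97.6, 93.5 and 88.8 in the 3 Dek_fl libraries against 94.0, 96.7 and 93.6 in the 3 Dek_cKO libraries, high in all 6 libraries.

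Igll1 had a region between the 2 genes, 1.4 kb before its start (chr16:16864606-16865776), with no other annotated start nearer to the summit. It was called in all 6 libraries at folds of 6.20, 5.42 and 9.29 in the 3 Dek_fl libraries against 6.14, 7.68 and 9.25 in the 3 Dek_cKO libraries. The −log10 p was 25.5, 34.4 and 23.5 in the 3 Dek_fl libraries against 35.5, 46.0 and 22.3 in the 3 Dek_cKO libraries. In the equal-length lists it was lost in Dek_fl replicate 2, where its rank of 23880 was just past the limit of 23809. Igll1 thus had the nearest upstream region of any member that was called in every deposited list, although no peak covered the promoter printed above. The region 9.0 kb past the Igll1 start (chr16:16854436-16855785), within 1 kb of the pseudogene Gm5768, had folds of 4.37 and 7.10 in Dek_fl replicates 1 and 2 against 7.28 and 7.44 in Dek_cKO replicates 1 and 2. A last region, 7.0 kb past the start, was called in Dek_cKO replicate 3 alone.

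Rag1 and Rag2 encode the 2 subunits of the recombinase and lie tail to tail on chromosome 2, from 101638252 to 101649532 (minus strand, gene ID 19373) and from 101624712 to 101632528 (plus strand, gene ID 19374). Rag2 overlaps Iftap, the gene of a protein linked to intraflagellar transport. The region 4.3 kb into Rag2 (chr2:101628207-101629587) was called in all 6 libraries, and its summit was 47 bp from the outer of 2 annotated Iftap starts. The fold was 6.24, 5.74 and 13.6 in the 3 Dek_fl libraries against 7.72, 8.28 and 12.9 in the 3 Dek_cKO libraries, and the −log10 p was 45.5, 84.8 and 47.7 in the 3 Dek_fl libraries against 115, 98.5 and 51.7 in the 3 Dek_cKO libraries. At the Rag2 start (chr2:101623015-101624713) the fold was 2.67 and 1.96 in Dek_fl replicates 1 and 2 against 2.32 and 1.68 in Dek_cKO replicates 1 and 2. By fold these were among the weakest peaks of the lists, at fold percentiles of 7.07, 0.913, 2.27 and 0.029. By −log10 p their percentiles were 30.9, 14.6, 23.3 and 0.23 in the same order. The peak reached the promoter printed above in Dek_cKO replicate 1 only. The 2 regions at 3.0 and 6.1 kb before the Rag2 start, both inside Iftap, had calls in the same 3 libraries. At 3.0 kb (chr2:101621160-101622071), on the promoter window of the other Iftap start, the folds were 2.21 in Dek_fl replicate 2 against 2.75 and 2.99 in Dek_cKO replicates 1 and 2. At 6.1 kb (chr2:101618139-101619257) they were 2.45 in Dek_fl replicate 2 against 2.70 and 3.17 in Dek_cKO replicates 1 and 2.

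Rag1 had no peak within 1 kb of its ends in any library. The region 3.5 kb before its start (chr2:101652367-101653459), outside genes, had folds of 3.96 and 4.67 in Dek_fl replicates 1 and 2 against 7.58 and 5.79 in Dek_cKO replicates 1 and 2. Its −log10 p was 9.80 and 20.9 in Dek_fl replicates 1 and 2 against 38.5 and 22.0 in Dek_cKO replicates 1 and 2. Both Dek_cKO folds were above both Dek_fl folds, as at 65.0% of all regions called in these 4 libraries. Of the regions around the recombinase pair, the one at the outer Iftap start alone was called in all 6 libraries, and calls at the starts of Rag1 and Rag2 were weak or not made.

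Cd79a, which encodes one signalling chain of the B cell receptor, lies on chromosome 7 from 24897497 to 24901858 (plus strand, gene ID 12518). No library had a peak on its promoter, and the nearest peak was 5007 to 6523 bp away over the 6 libraries. The region at 6.8 kb from its start (chr7:24902504-24905168) was called in all 6, with its summit 66 bp from the start of the neighbouring gene Arhgef1. The fold was 4.72, 4.43 and 8.74 in the 3 Dek_fl libraries against 5.36, 6.04 and 8.98 in the 3 Dek_cKO libraries, and the −log10 p was 47.1, 97.2 and 51.1 in the 3 Dek_fl libraries against 105, 105 and 44.7 in the 3 Dek_cKO libraries. A weak region at 9.9 kb, inside Arhgef1 (chr7:24907147-24907629), had folds of 2.32, 2.15 and 3.38 in the 3 Dek_fl libraries against 1.97 and 2.22 in Dek_cKO replicates 1 and 2. Before the gene, at 6.9 kb (chr7:24889982-24891173) and within 1 kb of an end of the ribosomal protein gene Rps19, the fold was 5.70 and 6.23 in Dek_fl replicates 1 and 2 against 7.50 and 8.60 in Dek_cKO replicates 1 and 2. Within 1 kb of the end of Cd79a itself, the edge of the Arhgef1 peak made the only calls, in Dek_fl replicate 2 and Dek_cKO replicates 1 and 2.

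Cd79b, the partner chain, lies on chromosome 11 from 106311341 to 106314562 (gene ID 15985). Its own end lay under a region (chr11:106313438-106315013, summit 0.3 kb inside), which had folds of 4.12 and 4.41 in Dek_fl replicates 1 and 2 against 5.70 and 5.28 in Dek_cKO replicates 1 and 2. The −log10 p was 14.0 and 27.2 in Dek_fl replicates 1 and 2 against 30.8 and 24.7 in Dek_cKO replicates 1 and 2. The region 8.5 kb outside the gene (chr11:106302760-106303647), at the growth hormone gene Gh, had folds of 6.34 in Dek_fl replicate 2 against 5.66 and 5.36 in Dek_cKO replicates 1 and 2. The region 4.6 kb outside it (chr11:106318531-106320067), at an end of the sodium channel gene Scn4a, had folds of 2.61 in Dek_fl replicate 2 against 2.95 and 3.52 in Dek_cKO replicates 1 and 2. The last, 5.4 kb outside, was called in Dek_cKO replicate 1 alone. None of the 4 entered an equal-length list.

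Ms4a1, whose product CD20 appears on B cells that have passed the early stages, lies on chromosome 19 from 11249679 to 11266149 (gene ID 12482), inside the long non-coding RNA gene 4930526L06Rik. The region 2.4 kb inside one end (chr19:11262849-11264306) had folds of 4.76 in Dek_fl replicate 2 against 5.14 and 5.72 in Dek_cKO replicates 1 and 2. The region 5.2 kb outside the other (chr19:11243766-11245222) had folds of 3.32 and 6.84 in Dek_fl replicates 1 and 2 against 6.31 and 9.29 in Dek_cKO replicates 1 and 2. Neither gene end had a peak within 1 kb in any library. At 5.2 kb Dek_fl replicate 1 was the lowest and Dek_cKO replicate 2 the highest, and the genotypes overlapped.

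The 5 regions with a call in every library were compared by rank: in each library the 19683 shared regions were ranked by fold, and ranks became normal scores, on which 0 is the middle. Near Vpreb1 the mean score was 1.38 ± 0.73 (SD, n = 3) in Dek_fl and 1.14 ± 0.57 (SD, n = 3) in Dek_cKO. The difference, Dek_cKO minus Dek_fl, was -0.25 (SE 0.45). It was -0.15 (SE 0.33) before Igll1, 0.05 (SE 0.47) in Rag2, 0.02 (SE 0.28) in Pax5 and -0.01 (SE 0.39) after Cd79a. None passed limma's test (adjusted p = 1 for each), and every difference was smaller than its standard error. Over all shared regions limma called 0 higher and 0 lower (background 0%) at an adjusted p of 0.05, with 68 and 19 at an unadjusted p under 0.05. This fit had no batch term, so the gap between batches is in its errors. The unadjusted calls were 0.442% of shared regions, against 4.3% with a batch term and 4.44% with a replicate block. A lack of calls therefore does not show that the genotypes are equal. The median absolute difference was 0.05 over the 5 regions and 0.18 over all 19683.

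**Figure D3:**
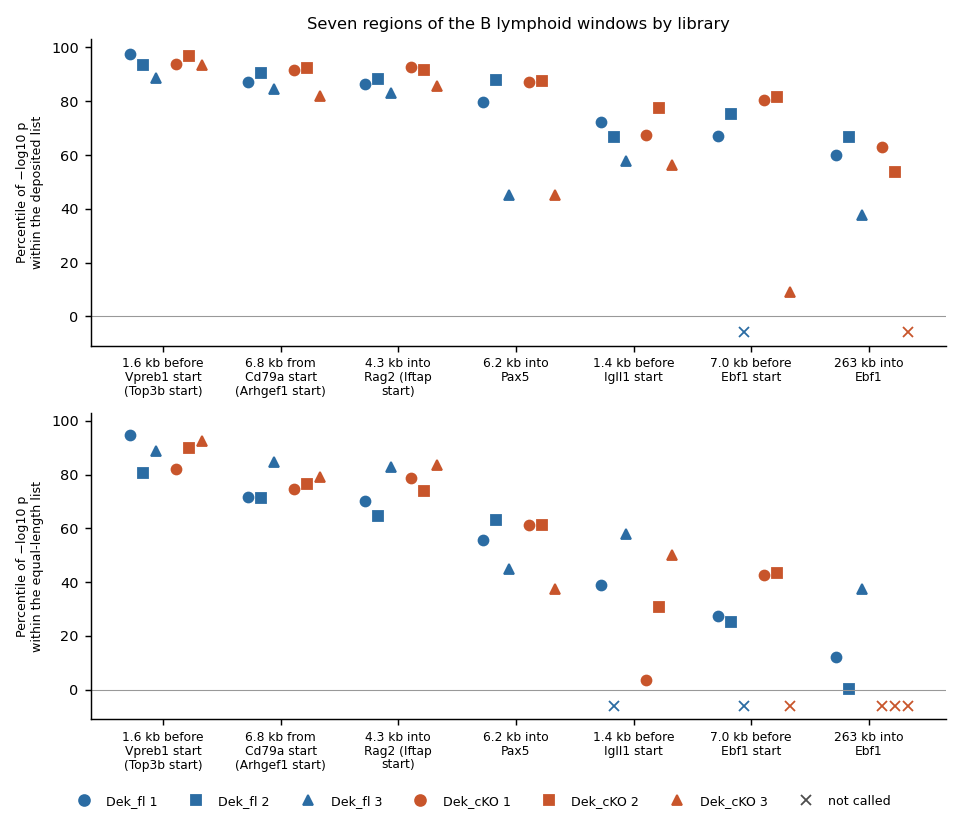
The 5 regions called in all 6 libraries and 2 further Ebf1 regions. Each point is a library, the y axis is the percentile of −log10 p within the deposited list (top) or the equal-length list (bottom), and crosses mark no call. Regions at the starts of Top3b and Arhgef1 and at the outer Iftap start stand at or above 81.9 in every deposited list; the region 263 kb into Ebf1 has 3 Dek_fl points and 3 Dek_cKO crosses in the bottom panel.

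No region of the 46 was called in all 3 libraries of one genotype and in none of the other, in either direction, beside 0.104% of all merged regions for Dek_cKO and 0.00355% for Dek_fl. Within the batch of replicates 1 and 2, 3 of 45 regions (6.67%, background 3.05%) were called in both Dek_cKO and neither Dek_fl library: Pax5 at 133.2 kb (chr4:44577238-44578201, folds of 4.55 and 5.18 in Dek_cKO replicates 1 and 2), Ebf1 at 15.1 kb (chr11:44632858-44633539, folds of 2.50 and 3.39 in Dek_cKO replicates 1 and 2) and Ebf1 at 67.9 kb (chr11:44685608-44686431, folds of 2.94 and 3.82 in Dek_cKO replicates 1 and 2). The reverse occurred at 0 of 45 (background 0.337%). In replicate 3 the Dek_cKO list alone had the Ebf1 regions 7.0 and 0.9 kb before the start and the Igll1 region 7.0 kb past it, and the Dek_fl list alone had the Ebf1 region at 263.3 kb and the Cd79a region at 9.9 kb. These are 3 (30%) and 2 (20%) of the 10 member regions called in either replicate 3 list, beside 19.9% and 8.89% of all regions called there, and each side is a single library.

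Among the 22 regions called in all 4 libraries of replicates 1 and 2 (47.8% of 46, beside 56.1% of all regions), both Dek_cKO libraries stood above both Dek_fl libraries in the percentile of fold at 8 (36.4%, background 22.3%), and both Dek_fl libraries stood above at 2 (9.09%, background 7.62%). The 8 were Pax5 at 6.2 and 37.9 kb, Ebf1 at 7.0 kb before its start and at 279.4 kb, Cd79a at 6.9 kb before its start, the Cd79b end, the Rag2 region at the outer Iftap start and Rag1 at 3.5 kb before its start. The 2 were Ebf1 at 263.3 kb and Cd79a at 9.9 kb. By −log10 p the numbers were 8 (background 27.1%) and 1 (background 4.55%). Over all 6 libraries 0 of the 5 shared regions separated the genotypes in either direction (background 2.40% and 0.701% by fold, 2.26% and 0.157% by −log10 p). Of 32 regions called in the other 3 libraries of replicates 1 and 2, Dek_fl replicate 1 lacked 10 (31.2%), beside 20.1% of all such regions. Those 10 lie outside the 22 and do not enter the counts over them. The part of Dek_fl replicate 1 in those counts was not tested.

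Calls near the gene ends were counted next. Within 1 kb of either end, 4, 6 and 0 of the 9 genes had a peak in the Dek_fl libraries and 6, 6 and 1 in the Dek_cKO libraries, beside 63.6%, 67.7% and 51.4% and 67.4%, 67.6% and 52.0% of protein-coding genes. None of the 9 had one in all 6 libraries, beside 48.8% of protein-coding genes. In the equal-length lists the counts were 1, 2 and 0 in Dek_fl and 3, 2 and 1 in Dek_cKO, beside 52.6%, 53.0% and 51.4% and 53.2%, 52.1% and 49.5% of protein-coding genes (44.7% in all 6 libraries). The promoter window of 300 bases had a peak in Dek_fl replicate 2 and Dek_cKO replicates 1 and 2 at Pax5 and at the first Ebf1 start, in Dek_cKO replicate 1 at Rag2, and in no library at the other 5 of 8 entries, beside 50.7% of 32619 promoters with a peak in at least 1 library and 32.9% in all 6. By library, 44.2%, 48.5% and 35.2% of promoters had a peak in Dek_fl and 48.6%, 48.3% and 35.4% in Dek_cKO. These counts are descriptions with no test.

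A wider list of 25 B lineage genes was counted the same way, beside the same shares of protein-coding genes. Of these, 17, 21 and 13 had a peak in Dek_fl and 21, 21 and 14 in Dek_cKO. In all 6 libraries 12 had one (48.0%), near the 48.8% of protein-coding genes. The 10 stem cell genes counted 9, 10 and 3 in Dek_fl and 9, 9 and 6 in Dek_cKO, and 3 had one in all 6 libraries (30.0%, beside 48.8% of protein-coding genes). In their windows all 10 had a peak in every deposited list and 8 in every equal-length list, beside 65.5% and 61.5% of protein-coding genes and 80.0% of the wider B lineage genes in both, so these counts do not test the labelled cell type. By identical calls at the gene end over the 6 libraries, genes matched to Pax5 and Cd79a included Cd22 and Vpreb3, a pattern that 2.48% of protein-coding genes have. Ebf1 was matched by Il7r (2.64%), and Cd79b, Igll1 and Rag2 by Blnk, Blk and Lef1 (9.29%). The uncalled ends of Vpreb1, Rag1 and Ms4a1 were shared by Fcer2a, Fcrla, Spib and Dntt (30.3%). In bulk libraries a region open in few cells and one weakly open in many cannot be told apart.

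**Figure D4:**
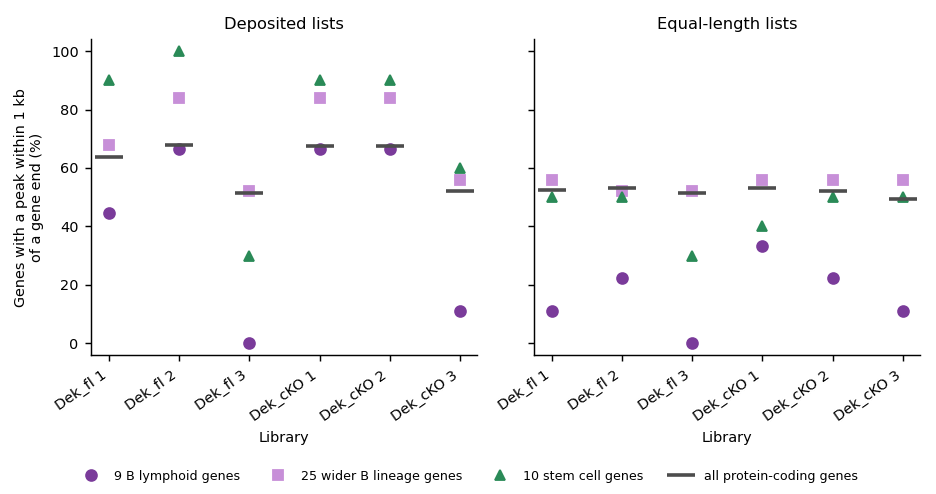
Percent of genes with a peak within 1 kb of a gene end in each library, in deposited (left) and equal-length (right) lists. Points are the 9 B lymphoid genes, 25 wider B lineage genes and 10 stem cell genes, and bars are all protein-coding genes. The 9 genes lie below the bar of all protein-coding genes in every library of both panels. In Dek_fl replicate 2 and Dek_cKO replicates 1 and 2 of the left panel, 6 of 9 stand just below 67.7%, 67.4% and 67.6%. The wider list lies below the bar only in the equal-length list of Dek_fl replicate 2.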

How the data were processed

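Peak lists of 6 ATAC-seq libraries, 3 per genotype, were used as the authors deposited them, 1 list per library. The tools named are Bowtie2, Picard and MACS2, with mm10 as the build, per the submitters' processing notes; neither their versions and settings nor any Tn5 shift are stated in the sources used here. A deposited row gives an interval, a score, a fold over local background at the summit (a ratio), −log10 p, −log10 q and the summit. These values are the authors' own, set within a list, and were used only to describe, rank or filter peaks. Read depth is unknown, so no counting interval is given.

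Chromosomes 1 to 19 and X were used, and peaks that shared 1 bp were merged. Genes came from RefSeq tables of GRCm38.p6, in which all 9 symbols matched, 7 with promoter entries; exons were not used. A percentile is the rank of a peak within its list, by −log10 p unless fold is named. Rank scores of regions called in all 6 libraries were compared with limma 3.58.1 (R 4.3.3, Python 3.11.15, pandas 2.3.3), with Benjamini-Hochberg adjustment over all of them, after a test on simulated data. The simulated data had no gap between batches, so that test does not cover the gap in these libraries. All members and the regions in them called in 3 or more libraries, or at a gene end, are named; wider B lineage genes are named for identical calls, and 1 gene that this rule covers is not reported here. The members and lists were chosen with earlier results of these data known, and the counts of separated values within replicates 1 and 2 were chosen after seeing the data. Alternatives were equal-length lists, −log10 q of at least 10, windows of 0 and 50 kb, 50% overlap, each batch alone, a replicate block, a batch term, ranks by −log10 p and leaving out each library.

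Same-numbered libraries deviated together from their group means over the shared regions, with correlations of 0.27, 0.52 and 0.74 for replicates 1, 2 and 3. The replicate block took the numbers to pair the libraries, although the labels do not say what they share, and the main fit did not. Dek_fl replicate 1 correlated more with Dek_cKO replicate 2 (0.31), and Dek_cKO replicate 1 more with Dek_fl replicate 2 (0.57). Within replicates 1 and 2 these values therefore show no pairing by number.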

Additional observations from a re-analysis of the deposited data

How the results depend on the processing

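The difference in genes with a peak, 0, ran from -0.667 to 0.667 over the alternatives, although a window of 0 kb lowered both group means to 4. Both extremes came from leaving out a replicate 3 library. They lie within the SD of 1.15, but that SD is the gap between batches. All 9 genes had a peak in replicates 1 and 2 of both groups, so this count had little room to differ. Differences at single regions turned direction in 14 fits and kept it in 40. In the main fit all 5 are smaller than their errors, so their direction is not settled. Without Dek_fl replicate 2 the difference was larger than its error at Vpreb1 (-0.649, SE 0.43) and Igll1 (-0.374, SE 0.35). The same held at Vpreb1 without Dek_cKO replicate 3 (-0.566, SE 0.44) and at Rag2 without Dek_fl replicate 3 (0.538, SE 0.39). The number of regions called in one genotype only, 0 in each direction, became 1 for Dek_fl in equal-length lists, 3 for Dek_cKO in replicates 1 and 2, and 3 for Dek_cKO and 2 for Dek_fl in replicate 3. Leaving out 1 library gave 0 to 3 for Dek_cKO, with 3 only without Dek_cKO replicate 3. With a replicate block, which pairs libraries by number, 1 shared region outside the B lymphoid windows was higher in Dek_cKO, against 0 without it, and unadjusted calls numbered 585 higher and 289 lower; it changed no other call. By rank of −log10 p the difference turned to -0.020 at Pax5 and 0.016 at Cd79a, and moved to -0.024 at Vpreb1 and 0.205 at Rag2. At Cd79a it was 0.049 in equal-length lists and 0.029 at −log10 q of at least 10. Leaving out 1 library at a time, the difference ran from -0.053 to 0.078 at Pax5, -0.274 to 0.317 at Cd79a, -0.374 to 0.019 at Igll1, -0.649 to 0.064 at Vpreb1 and -0.316 to 0.538 at Rag2, with 0 calls among these regions in every setting; the cause was not tested. The Igll1 region could not be fitted in equal-length lists, where Dek_fl replicate 2 lacks it. Unknown depth limits every count of calls.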

Other observations

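Genes of other lineages gave gene-end counts in the same libraries, described here with no test. Of 10 T cell genes, 5, 6 and 1 had a peak within 1 kb of an end in the Dek_fl libraries and 6, 7 and 2 in the Dek_cKO libraries, in the order of replicates. Among 10 myeloid genes the counts were 5, 7 and 2 and 7, 7 and 4. The 9 matched erythroid genes counted 5, 6 and 4 and 6, 6 and 5, and 10 genes of non-blood tissues counted 3, 3 and 2 and 4, 4 and 2. In equal-length lists the T cell genes counted 2, 2 and 1 and 1, 2 and 2, the myeloid genes 0, 0 and 2 and 1, 0 and 2, the erythroid genes 5, 5 and 4 and 6, 6 and 5, and the non-blood genes 2, 2 and 2 and 2, 2 and 1. The B lymphoid genes, at 1, 2 and 0 and 3, 2 and 1 of 9, were close in number there to the T cell genes and to the non-blood genes alike.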
